A study of Mus musculus with 7 samples.

Results

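The genes described here are those of the mouse major histocompatibility complex (MHC), named H2 in the mouse, together with 6 genes of the same antigen presentation machinery. Members were the rows of the deposited table whose symbol starts with H2-, plus B2m, Tap1, Tap2, Cd74, Ciita and Nlrc5. Of 48440 gene rows, 51 met this rule, 38 of them had a value above 0 in at least 1 library, and 34 averaged 10 or more normalized counts and were tested. RNA was sequenced from LSK cells (Lin-Sca1+cKit+), the fraction of mouse bone marrow (BM) that contains hematopoietic stem cells (HSCs) and multipotent progenitors. The cells were sorted 77 days after BM of either genotype, WT or PROSER1 KO, had been given to irradiated recipients (9.5 Gy), which gave 4 wild-type and 3 PROSER1 KO libraries. All donors of the PROSER1 KO group carried a constitutive knockout of PROSER1, a partner of the TET enzymes that oxidize methylated cytosine, and no sample received any other agent. Recipients of both groups were irradiated C57BL/6 mice. The ages of the animals, the number of animals behind each library and any gate against cells of the host were not given in the sources used here.

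The libraries held 33143619 to 45140743 read pairs on genes. A row at 0 allows up to 3 read pairs, equal to a normalized count of 2.54 to 3.48 (counting error only). Proser1 mRNA, the targeted transcript, had normalized counts of 2019, 2153, 2103 and 2077 in the wild-type libraries and of 2464, 2359 and 2338 in the PROSER1 KO libraries (log2 fold change 0.19, limma adjusted p = 0.204). It was therefore not lower under the KO label, and the latter libraries are called KO-labelled below, since every direction rests on their labels. The LSK markers Kit (25535 to 32357) and Ly6a, which encodes Sca1 (3961 to 6822), were high in all 7 libraries. RNA of other cells was also present, since Jchain of plasma cells reached 151607 to 384345. Cd3g of T cells was 697 in KO-labelled replicate 1 against 20.9 to 52.9 in the other libraries, and Cd3d, Cd3e, Trbc2, Lck and Cd8a were highest there too. Trac, highest in wild-type replicate 1, and Cd4 (170 in that library against 200 to 287 in wild-type) were not. In such bulk RNA, fewer cells of a type and less RNA per cell cannot be told apart.

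MHC class I molecules are cell surface complexes of a heavy chain, the light chain β2-microglobulin and a peptide made in the cytosol, which the TAP transporter carries into the endoplasmic reticulum, and they are read by CD8 T cells and natural killer cells. Nearly all nucleated cells make them. MHC class II molecules are α and β chain pairs that present peptides from endosomes to CD4 T cells, are guided there by the invariant chain (Cd74), and are loaded with the help of H2-DM, which H2-O restrains. They are best known from B cells, dendritic cells and macrophages, and are also found on blood progenitors. Transcription of class I genes is raised by NLRC5 and that of class II genes by CIITA. Both act through a promoter module, called SXY, that is bound by RFX, CREB-type and NF-Y factors, of which NF-Y recognizes CCAAT.

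Letters known from such promoters were searched upstream of these genes, and 6 windows are shown because class I and class II genes are described below as groups. Of the 34 tested genes, 24 had a start in the RefSeq table of GRCm38.p6. CCAAT or its reverse complement ATTGG lay within 250 bases upstream of the start in 20 of these 24 (83.3%), against 33.8% of all 32851 RefSeq starts, and not in those of H2-DMa, H2-M5, H2-Q10 and H2-T3. The letters GGGGATTCCC, a κB-type sequence of class I enhancers searched on both strands, lay in 4 of 12 class I heavy chain windows (H2-K1, H2-D1, H2-Q6 and H2-Q7) and in 0.0852% of all starts. GATGA followed 5 to 35 bases later by ATTGG was found on either strand in 8 of the 24 (33.3%), against 1.12% of all starts. Of the windows shown, those of H2-Q6, H2-Q7 and H2-Eb1 hold this pair. These letters were chosen after the sequences had been seen, and a match is a description, not a binding site. Some of the counted windows, such as those of H2-D1, H2-DMb1 and H2-DMb2, lie wholly or partly inside the gene as annotated in GENCODE M21. None of these is shown. All windows are on GRCm38.p6, written 5′ to 3′ on the strand of the gene, with GGGGATTCCC and CCAAT or ATTGG in capitals. They lie at chr17:34000354-34000463 (minus strand) for H2-K1, chr17:35424672-35424804 (plus) for H2-Q6, chr17:35439017-35439148 (plus) for H2-Q7, chr17:34287852-34287931 (minus) for H2-Aa, chr17:34305748-34305827 (plus) for H2-Eb1 and chr17:34238788-34238867 (plus) for H2-Ob, each upstream of the first annotated base of the gene.
H2-K1: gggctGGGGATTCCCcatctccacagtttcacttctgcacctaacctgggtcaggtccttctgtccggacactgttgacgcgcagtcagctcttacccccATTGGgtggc
H2-Q6: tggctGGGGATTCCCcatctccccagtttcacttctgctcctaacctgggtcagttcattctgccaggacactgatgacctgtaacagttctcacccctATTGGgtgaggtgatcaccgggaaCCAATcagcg
H2-Q7: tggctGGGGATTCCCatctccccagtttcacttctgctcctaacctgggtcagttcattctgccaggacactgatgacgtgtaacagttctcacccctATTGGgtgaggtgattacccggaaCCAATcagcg
H2-Aa: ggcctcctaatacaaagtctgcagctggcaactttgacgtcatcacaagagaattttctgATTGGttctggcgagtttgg
H2-Eb1: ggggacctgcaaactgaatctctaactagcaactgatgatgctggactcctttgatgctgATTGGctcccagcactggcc
H2-Ob: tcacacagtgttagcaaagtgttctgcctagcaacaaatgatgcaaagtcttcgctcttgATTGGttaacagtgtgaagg

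The windows of H2-Q6 and H2-Q7 were identical at 129 of 133 aligned positions (97%), and that of H2-K1 matched H2-Q6 at 93 of 109 (85.3%). The 3 class II windows were less alike, with 60% identity over 70 aligned positions between H2-Aa and H2-Eb1 and 68.8% over 64 between H2-Eb1 and H2-Ob.

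The LSK libraries held abundant class I mRNA, and the class II chains lay below the classical class I chains. These are levels of the bulk libraries, which also held RNA of other cells, and the part of each cell type was not tested. Levels between genes were compared as normalized counts per kb of exon, with wild-type means ± SD (n = 4). B2m, the light chain of every class I molecule (chr2:122147686-122153083), was the most abundant member at 71859 ± 4306. It was followed by the classical heavy chain genes H2-K1 (chr17:33996017-34000347) at 25302 ± 569 and H2-D1 (chr17:35262730-35267499) at 17620 ± 371. Cd74 stood next at 10486 ± 2960, above H2-Q6 at 7970 ± 426, a gap smaller than the SD of Cd74. Among the class II chains H2-Ab1 had 1417 ± 138, H2-Eb1 1149 ± 134 and H2-Aa 693 ± 97.9. The wild-type ranges of the neighbours H2-Ab1 and H2-Eb1 overlapped. The 2 transactivators differed widely, since Nlrc5 was at 819 ± 47.6 and Ciita at 35.8 ± 4.48. Together the member rows took 0.771% to 0.921% of all read pairs, and H2-K1 with H2-D1 made up 60.2% to 64% of the summed normalized counts of the class I heavy chain genes.

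**Figure D1:**
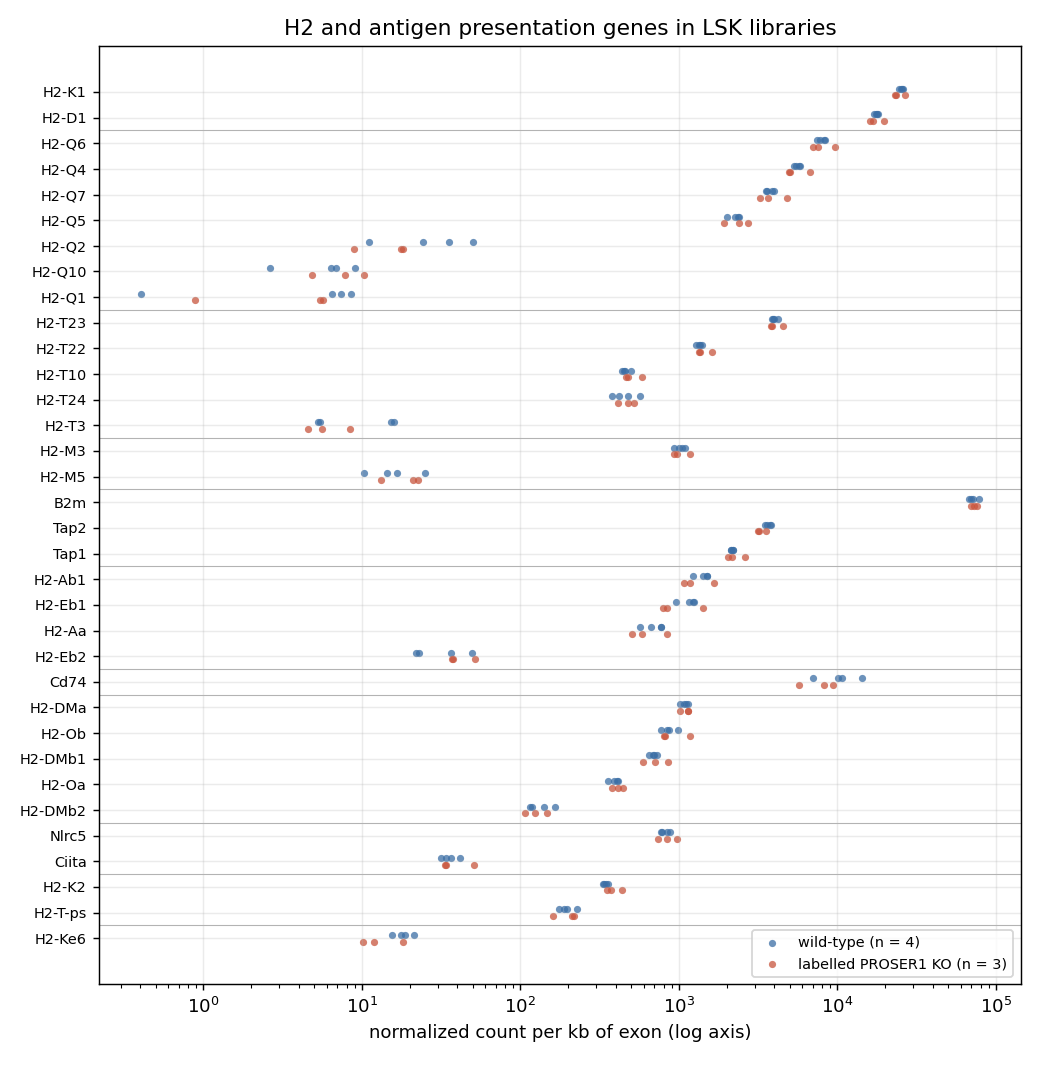
Level of the 34 tested genes in each library, as normalized count per kb of exon on a log axis, with each gene's 4 wild-type libraries in blue above its 3 KO-labelled libraries in red. Grey lines part the genes by role, and the points of both colours overlap for every gene, from B2m at a wild-type mean of 71859 down to H2-Q1 at 5.69.

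Several members were silent or nearly so. The 13 rows that never rose above 0 were H2-Ea, H2-M1, H2-M9, H2-M10.2, H2-M10.3, H2-M10.4, H2-M10.5, H2-M10.5-ps1, H2-M10.6, H2-M11, H2-Pa, H2-Pb and H2-Q3. H2-Ea encodes the α chain partner of H2-Eb1, which mice of the b haplotype, such as C57BL/6, do not make. A further 4 were detected but below the minimum mean, namely H2-M10.1 (0 to 11.6), H2-Bl (0 to 4.23), H2-M6-ps (0 to 2.70) and H2-M2 (0 to 0.960). Most of the M region genes were thus not detectable at this depth, with H2-M3 and H2-M5 as the tested exceptions.

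Whether loss of PROSER1 changed the antigen presentation program of LSK cells was asked by comparing the KO-labelled with the wild-type libraries across all genes. None of the 34 tested members passed the test. Differentially expressed genes were taken at an adjusted p-value under 0.05 in limma and a fold change above 1.5, on log2(normalized count + 1), a scale that understates the change of low genes. At this rule 0 of 34 members were called by limma, by edgeR or by DESeq2, where 0.258% of the 16251 tested genes were called by limma and 0.246% by edgeR. DESeq2, with its own filter, gave an adjusted p to 35 members and to 18903 genes in all, of which 0.873% were called. An unadjusted limma p under 0.05 was reached by 1 member, Tap2, against 9.73% of all tested genes, by 1 in edgeR (background 9.86%) and by 2 in DESeq2, Tap2 and H2-Q2 (background 7.03%). The 2 groups of libraries overlapped for every member, while 10% of all tested genes had groups that did not overlap. Of the members, 20 had a higher and 14 a lower mean log2 level in the KO-labelled libraries, with a median log2 fold change of 0.018 against 0.0015 over all genes. The precision differed with the level. For 25 of 34 members (73.5%) the 95% interval of the fold change lay wholly within 1.5-fold in either direction, against 65.7% of all tested genes, and these 25 were among the 28 members with a mean of at least 100 (89.3%).

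**Figure D2:**
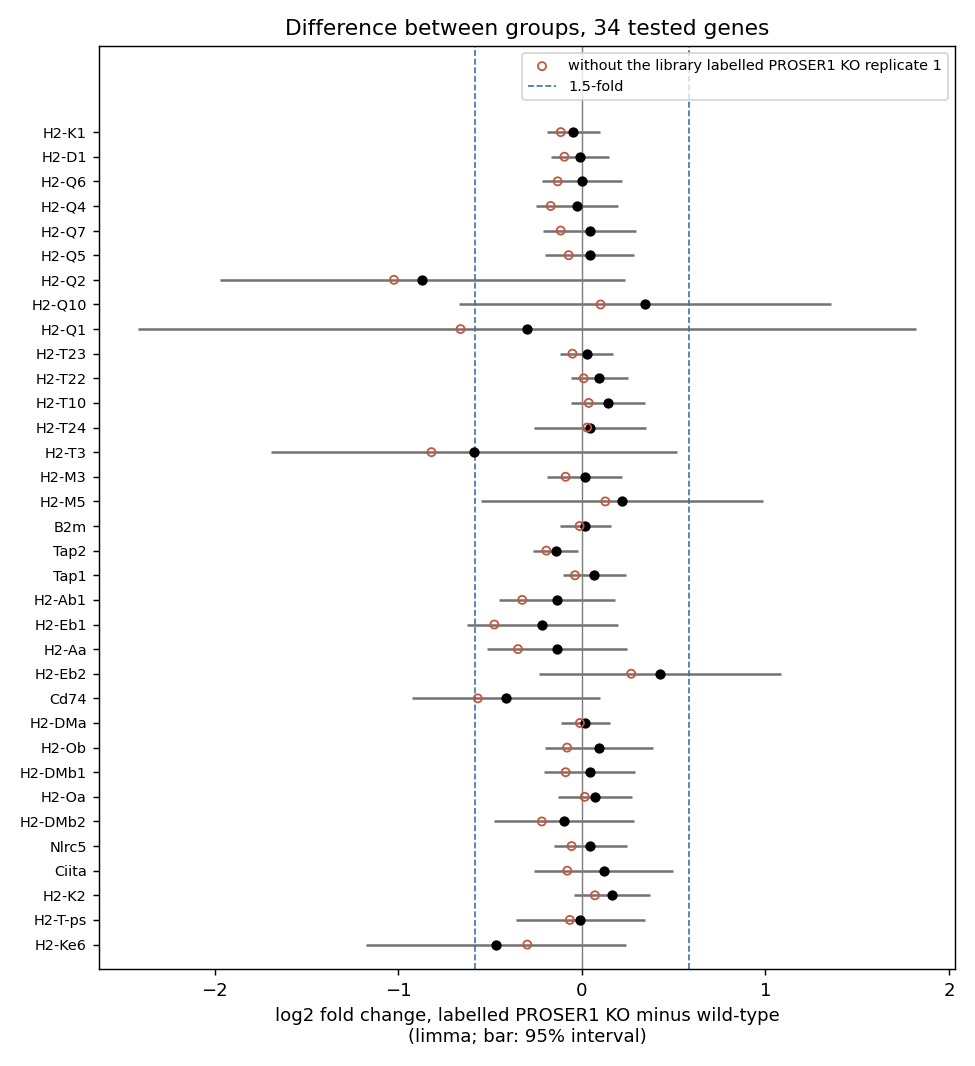
Log2 fold change (KO-labelled minus wild-type) of the 34 tested genes, with black points for limma's estimate from 4 wild-type and 3 KO-labelled libraries, bars for its 95% interval, open red points for the estimate without KO-labelled replicate 1, and dashed lines at 1.5-fold. The intervals of 25 genes lie between the dashed lines, the widest belong to genes of low count, and only the interval of Tap2 leaves out 0.

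The classical class I heavy chains, which present peptides to CD8 T cells, differed in mean by less than the spread between libraries. H2-K1 had normalized counts of 74215, 75847, 72041 and 75242 in the wild-type libraries and of 78889, 69030 and 68194 in the KO-labelled ones. KO-labelled replicate 1 was the highest of all 7 and the other 2 the lowest, so that the groups overlapped only through replicate 1. Its log2 fold change was -0.048 with a 95% interval from -0.19 to 0.096 (limma, adjusted p = 0.864). For H2-D1, too, KO-labelled replicate 1 was the highest library and the other 2 KO-labelled libraries were the lowest. H2-D1 had 45879, 46408, 44173 and 45303 in wild-type and 50763, 43479 and 41585 in KO-labelled libraries. Its log2 fold change was -0.010 (95% interval -0.17 to 0.15, limma adjusted p = 0.979). Of the 100-base windows of the H2-D1 transcripts 3.59% also occur in other genes, and of those of H2-K1 0.957%. With 50-base windows the shares were 12.8% and 9.63%.

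Among the Q, T and M region class I genes, 10 of 14 had a higher and 4 a lower mean log2 level in the KO-labelled libraries. Over all tested genes 8219 were higher and 8032 lower. Of the 14, 0 passed the test, against 0.258% of all tested genes. Without KO-labelled replicate 1 the Q genes were 1 higher and 6 lower, the T genes 3 and 2, and the M genes 1 and 1. H2-Q6 and H2-Q7, which encode the Qa-2 antigen, had 15515 to 17473 and 15054 to 16888 in wild-type. They had 20000, 14682 and 15623 and 20431, 13885 and 15596 in KO-labelled replicates 1, 2 and 3. Again replicate 1 was the highest and replicate 2 the lowest of all libraries. Both genes share sequence, since 10.8% of the 100-base windows of H2-Q6 and 12% of those of H2-Q7 occur in other genes. With 50-base windows the shares were 32% and 26.4%. Their separate counts are thus uncertain, to an extent that was not measured. H2-T23, which encodes the Qa-1 molecule seen by the NKG2 receptors of natural killer cells, had 11168 to 12101 in wild-type and 13053, 11019 and 11214 in KO-labelled libraries. H2-M3, which presents formylated peptides, had 1339 to 1574 in wild-type and 1701, 1401 and 1344 in KO-labelled libraries. The summed normalized counts of all class I heavy chain genes were 187503, 195801, 185457 and 194513 in wild-type and 215305, 176519 and 177952 in KO-labelled libraries. The log2 ratio of the group means of this sum was -0.0068, with KO-labelled replicate 1 above and the other 2 below every wild-type library.

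Larger fold changes among class I genes belonged to genes of low count and did not pass the test. H2-Q2 had 76.9, 53.2, 24.1 and 109 in wild-type and 38.6, 19.5 and 39.4 in KO-labelled libraries, with a log2 fold change of -0.87 (SE 0.49, limma adjusted p = 0.605). The wild-type range covers most of the KO-labelled values, but only through wild-type replicate 3, at 24.1. Without that library the log2 fold change was -1.28 (limma adjusted p = 0.319). H2-T3, the thymus leukemia antigen, had 14.4, 43.3, 14.9 and 41.7 in wild-type and 22.9, 15.2 and 12.5 in KO-labelled libraries (log2 fold change -0.59, SE 0.49, limma adjusted p = 0.741). H2-Q10, whose product is secreted by the liver, had 27.9, 29.7, 11.5 and 39.4 against 44.9, 33.8 and 21.1 (0.34, SE 0.45, limma adjusted p = 0.861). H2-M5 had 38.5, 45.1, 27.6 and 67.2 against 56.3, 35.5 and 60.5 (0.22, SE 0.34, limma adjusted p = 0.890), and its log2 fold change ran from 0.018 without wild-type replicate 3 to 0.45 without KO-labelled replicate 2. The 2 groups overlapped widely for H2-T3, H2-Q10 and H2-M5. H2-Ke6, also known as Hsd17b8, lies in the complex but encodes a steroid and fatty acid dehydrogenase rather than a presentation protein. It had 30.8, 35.2, 25.3 and 29.0 in wild-type and 16.7, 19.5 and 29.8 in KO-labelled libraries, with a log2 fold change of -0.47 (SE 0.31, limma adjusted p = 0.678), and 61.6% of its 100-base windows are shared with another gene.

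The light chain and the peptide transporter were measured with some of the smallest errors. B2m had 61989, 59773, 58513 and 66918 in wild-type and 65302, 60061 and 62288 in KO-labelled libraries, and the KO-labelled values fell inside the wild-type range. Its log2 fold change was 0.019 with a 95% interval from -0.12 to 0.16 (limma, adjusted p = 0.953). Tap1, the first TAP subunit (chr17:34187553-34197225), had 11975, 11954, 11599 and 11745 against 14343, 11859 and 11174, a log2 fold change of 0.068 (SE 0.077, limma adjusted p = 0.825). Tap2, the second subunit (chr17:34203527-34216321), had 14152, 13585, 13178 and 14489 in wild-type and 13452, 12012 and 12191 in KO-labelled libraries. KO-labelled replicates 2 and 3 were the lowest of the 7 for Tap2, and replicate 1 lay within the wild-type range. Its log2 fold change was -0.14 (SE 0.055, 95% interval -0.27 to -0.019, limma adjusted p = 0.436), and a two-sided exact permutation test over the 7 libraries gave p = 0.0857, where the smallest possible was 0.0286. The ratio of Tap1 to Tap2 counts was 0.811 to 0.880 in wild-type and 1.07, 0.987 and 0.917 in KO-labelled libraries, without overlap, a pair that was singled out after its values had been seen and is given without a test. Tap1 overlaps Psmb9 on the opposite strand and Tap2 overlaps Gm15821 and Gm20496 there, and whether the counting used the strand was not given in the sources used here.

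The class II chains were lower in mean but not beyond the spread between libraries. H2-Ab1, the β chain of I-A (chr17:34257689-34269419), had 3886, 3873, 3130 and 3663 in wild-type and 4296, 3029 and 2761 in KO-labelled libraries. H2-Aa, its α chain, had 2918, 2933, 2151 and 2533 against 3207, 2208 and 1908. H2-Eb1, the β chain of I-E, had 2434, 2383, 1857 and 2259 against 2753, 1643 and 1549. In each of the 3 genes KO-labelled replicate 1 was the highest library and replicate 3 the lowest. The log2 fold changes were -0.14 for H2-Ab1 (SE 0.14), -0.13 for H2-Aa (SE 0.17) and -0.21 for H2-Eb1 (SE 0.18), with limma adjusted p of 0.802, 0.853 and 0.749. The chains kept a steady proportion to each other, since the ratio of H2-Aa to H2-Ab1 was 0.687 to 0.757 over all 7 libraries and that of H2-Eb1 to H2-Ab1 was 0.542 to 0.641. H2-Eb2, a second β chain gene of low level, had 123, 74.8, 78.2 and 167 against 175, 127 and 126, a log2 fold change of 0.42 (SE 0.29, limma adjusted p = 0.683), so that 3 of 4 chains were lower and 1 higher.

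Cd74 (chr18:60803848-60812652), the invariant chain, followed another order of libraries. It had 17829, 16946, 11762 and 23887 in wild-type and 15843, 9548 and 13891 in KO-labelled libraries, a log2 fold change of -0.41 (SE 0.23, 95% interval -0.93 to 0.10, limma adjusted p = 0.597). Wild-type replicate 4 was the highest and KO-labelled replicate 2 the lowest, a range of 2.50-fold, against 1.56-fold for H2-Ab1. With 1 library left out the log2 fold change ran from -0.59 without wild-type replicate 3 to -0.20 without KO-labelled replicate 2. The ratio of Cd74 to H2-Ab1 ran from 3.15 in KO-labelled replicate 2 to 6.52 in wild-type replicate 4. With Cd74 the summed class II counts had a log2 ratio of group means of -0.32, and without it -0.12. The former was -0.17 without KO-labelled replicate 2, -0.20 without wild-type replicate 4 and -0.51 without KO-labelled replicate 1. Ctss, the cathepsin that cuts the invariant chain, ranked the 7 libraries in the same order as Cd74, with 7796, 6270, 4765 and 9763 in wild-type and 5906, 3820 and 5472 in KO-labelled libraries. It was named after its values had been seen.

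The marker lists of other cells moved in part with these genes. The summed counts of the 8 plasma cell markers, all detected, were 296259, 244355, 172205 and 432130 in wild-type and 223674, 201084 and 300831 in KO-labelled libraries. Most of this sum was Jchain, at 151607 to 384345. All 8 were lower in mean log2 level in the KO-labelled libraries, and 0 were called. The 12 B-lineage markers, all detected, summed to 8791, 6778, 5106 and 10239 against 7984, 5048 and 7474. Both sums were highest in wild-type replicate 4, as was Cd74. Within the B-lineage list the members went different ways, with 6 higher and 6 lower in mean log2 level and 0 called. An unadjusted limma p under 0.05 was reached by 4, against 9.73% of all tested genes. Of these, Igll1, Ebf1 and Pax5 were higher and Fcrla was lower. Fcrla had 705 to 1519 in wild-type and 461 to 694 in KO-labelled libraries, without overlap (log2 fold change -0.76, limma adjusted p = 0.353). Ms4a1 was also lower, with 310 to 799 against 278 to 438 (-0.61, limma adjusted p = 0.540). Pax5, Vpreb1 and Igll1, genes of early B-cell stages, were lowest in wild-type replicate 4 (55.6, 24.3 and 6.96). They and Ebf1 were highest in KO-labelled replicate 1, at 303 for Pax5, 91.8 for Vpreb1, 70.9 for Igll1 and 494 for Ebf1. The 10 dendritic cell markers other than Flt3 summed to 3264 to 5911 in wild-type and 2910 to 4375 in KO-labelled libraries. Of this, Ly6d alone had 1578 to 3880 and 1532 to 2513. Of the list with Flt3, 10 were tested, 4 were higher and 6 lower in mean log2 level. Only 1 was called, against 0.258% of all tested genes. It was Clec10a, which fell by 0.91 on the log2 scale (limma adjusted p = 0.0186), from 314 to 385 in wild-type to 171 to 205. Batf3 did not overlap either, with 39.4 to 51.4 against 14.4 to 23.0 (limma adjusted p = 0.204). Cd209a of the same list was at 0 in 5 libraries and at most 2.09. The 12 macrophage and monocyte markers summed to 6066 to 6379 in wild-type and 6797 to 7308 in KO-labelled libraries. Most of this sum was Lyz2, with 4070 to 4884 and 4769 to 5306. Of the 11 tested, 8 were higher and 3 lower in mean log2 level, and 0 were called. The 8 T cell markers summed to 2011 to 2726 in wild-type and to 3855, 1590 and 1656 in KO-labelled libraries, where replicate 1, the library high in the class II chains, was again the highest. Most of this sum was Lck, with 1536 to 2122 and 1282 to 2230. Of the 8 T cell markers, 3 were higher and 5 lower in mean log2 level, and 0 were called. Cd4 was lower without overlap, with 200 to 287 against 113 to 191 (limma adjusted p = 0.374). The part of the cells of all these lists in the class II values was not tested.

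**Figure D3:**
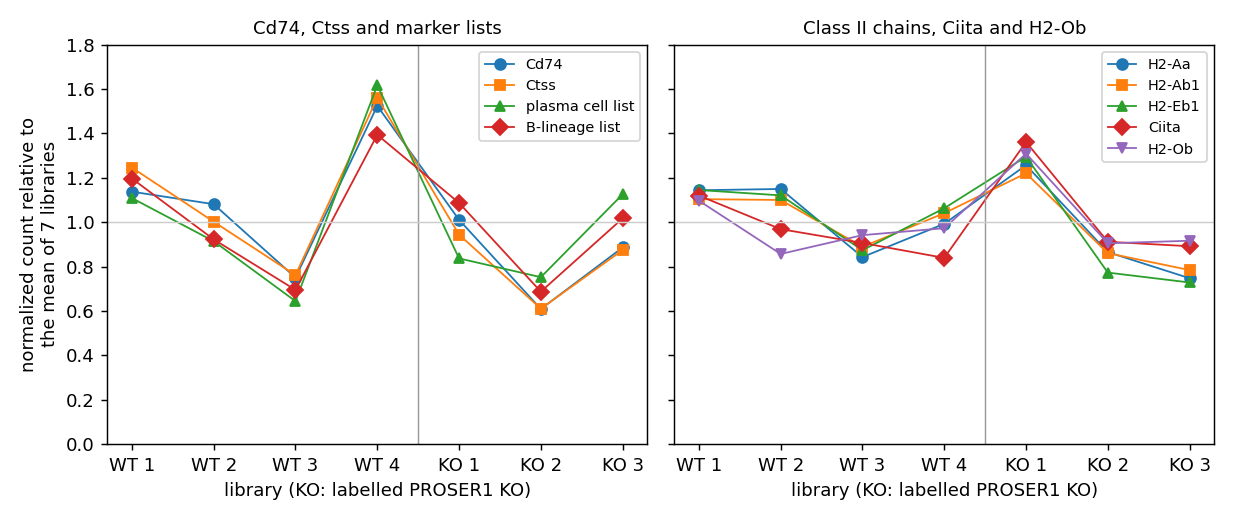
Normalized count in each of the 7 libraries relative to its mean over them. Most of the plasma cell sum is Jchain. The left panel shows Cd74, Ctss and the sums of the plasma cell and B-lineage marker lists, all highest in wild-type replicate 4 although Pax5, Ebf1, Vpreb1 and Igll1 of the B-lineage list were highest in KO-labelled replicate 1, and the right panel shows H2-Aa, H2-Ab1, H2-Eb1, Ciita and H2-Ob, all highest in KO-labelled replicate 1.

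None of the genes of class II peptide loading passed the test. H2-DMa, a chain of the H2-DM exchange factor, had 3518 to 3908 in wild-type and 3934, 3921 and 3496 in KO-labelled libraries. H2-DMb1, its β chain, had 1090 to 1220 against 1430, 1189 and 997. H2-Ob, a chain of the H2-O inhibitor, had 5286, 4130, 4538 and 4688 against 6306, 4361 and 4416. All 5 exchange genes, with H2-DMb2 and H2-Oa, had 95% intervals within 1.5-fold, and their log2 fold changes lay between -0.097 and 0.093. H2-DMb1 and H2-DMb2 are near copies, which share 11.3% and 10.3% of their 100-base windows and 22.7% and 24.8% of their 50-base windows, so that their split is uncertain.

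Of the transactivators, Ciita (chr16:10480059-10528418) had 399, 345, 323 and 299 in wild-type and 485, 325 and 318 in KO-labelled libraries. Its log2 fold change was 0.12 (SE 0.17, limma adjusted p = 0.874), with KO-labelled replicate 1 the highest and wild-type replicate 4 the lowest library. Nlrc5 (chr8:94434356-94527272) had 6683, 7161, 6554 and 7417 against 8245, 6228 and 7159, a log2 fold change of 0.045 (SE 0.088, limma adjusted p = 0.917). KO-labelled replicate 1 was the highest library for both. Ciita overlaps Dexi and Nlrc5 overlaps 9330175E14Rik on the opposite strand.

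KO-labelled replicate 1 was the highest of the 7 libraries for 23 of 34 members, where it was the highest for 15.5% of all tested genes. This held for 11 of 16 class I heavy chain genes and for 8 of 9 class II chain and exchange genes. KO-labelled replicate 2 was the lowest library for 11 members and replicate 3 for 9, where they were the lowest for 17% and 14.6% of all genes. Members share regulators and sequence and are not independent of each other. Without KO-labelled replicate 1, 26 of 34 members were lower and 8 higher, with a median log2 fold change of -0.085. In that fit 6 members had an unadjusted limma p under 0.05, against 9.36% of all genes, namely H2-Aa, H2-Ab1, H2-Eb1, Cd74, H2-Q4 and Tap2. The log2 fold change of H2-Eb1 was then -0.48, that of H2-Aa -0.35 and that of H2-Ab1 -0.33. Still 0 of 34 were called, where 0.216% of all genes were, and the lowest limma adjusted p was 0.207 for H2-Eb1. The T cell transcripts of replicate 1 are given above, and their part in this pattern was not tested.

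**Figure D4:**
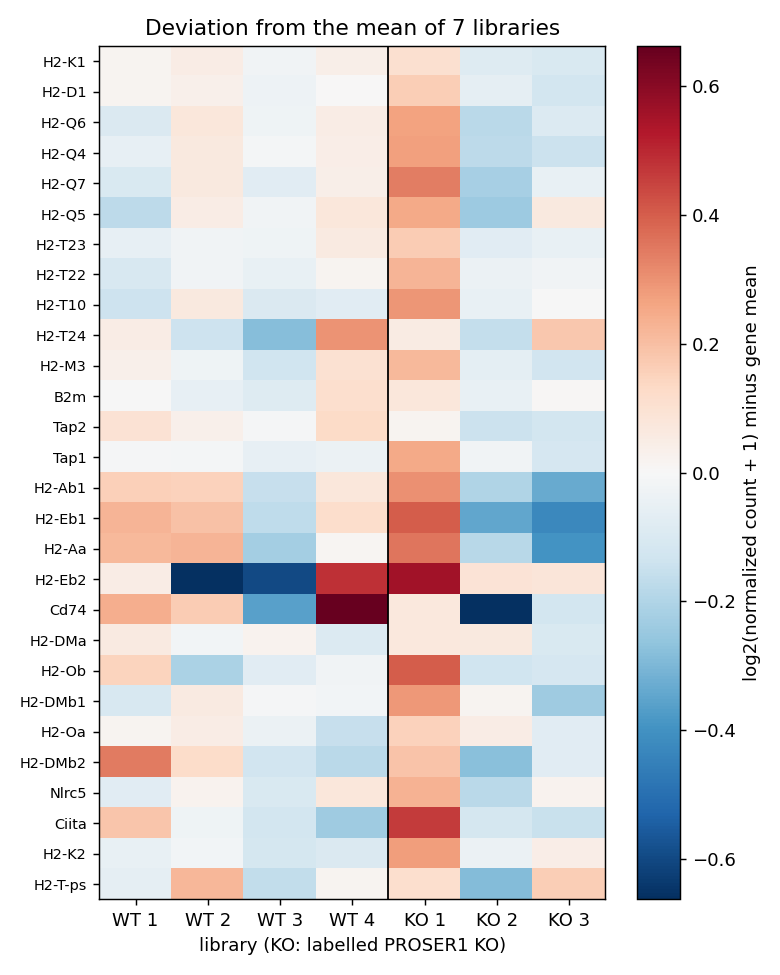
Deviation of each library from the gene's mean over 7 libraries, on the scale log2(normalized count + 1), for the 28 tested members with a mean of at least 100, with red above and blue below the mean and a line between the 4 wild-type and the 3 KO-labelled libraries. The column of KO-labelled replicate 1 is above the mean in most rows, and Cd74 is highest in wild-type replicate 4.

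Genes of the pathway outside the H2 complex were read from a list of 41 for peptide loading, class II processing, transcription and interferon signalling, and class I-like molecules. Of these 38 were tested, 19 had a higher and 19 a lower mean log2 level in the KO-labelled libraries, and 0 were called, against 0.258% of all tested genes. An unadjusted limma p under 0.05 was reached by 4 of 38, near the background of 9.73%, and the lowest limma adjusted p was 0.396. The 4 are given by the naming rule, not as changed genes. Irf2, a repressor and activator of interferon genes, had 5012 to 5456 in wild-type and 4617 to 4942 in KO-labelled libraries, a log2 fold change of -0.13. Calr, the chaperone that holds new class I heavy chains, had 35899 to 37992 against 29395 to 35517 (-0.17). Ifngr2, a chain of the interferon-γ receptor, had 986 to 1057 against 1122 to 1129 (0.15), and Nfya, a subunit of NF-Y, had 9035 to 10262 against 10077 to 11003 (0.14). The groups did not overlap for Irf2, Calr and Ifngr2, that is for 3 of 38 genes, against the background of 10%.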

How the data were processed

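The deposited values are a normalized signal per gene, which the authors made by trimming (Trimmomatic), alignment to mm10 (STAR), fragment counting (featureCounts) and scaling by size factors (DESeq2). Their notes name GENCODE release M25 and the file header vM10. Every value (100%) was a whole number of read pairs within 0.01 once divided by the library's smallest step. Members and gene lists were chosen with earlier results of these data known. limma 3.58.1 in R 4.3.3 (mean-variance trend) was run on log2(normalized count + 1) for the 16251 genes averaging 10 or more. edgeR 4.0.16 (quasi-likelihood) and DESeq2 1.42.0 on recovered read pairs were alternatives, as were other pseudocounts, filters, scalings, variance estimates, a replicate block and each library left out. Named genes were 11 fixed members, those with an unadjusted p under 0.05, and the 3 highest and 3 lowest fold changes. Further members illustrate roles and were added after values were seen. Replicates are those of the labels. The limma, edgeR and DESeq2 p-values set the group difference against the spread between these libraries, with variances moderated over the genes. The 685 rows lacking a symbol took up to 0.135% of the read pairs. Positions and exon lengths are from GENCODE M21 (GRCm38) and upstream windows from RefSeq (GRCm38.p6). On simulated data limma recovered 88 of 97 genes changed by 1 on the log2 scale (90.7%). It made 6 false calls there, over 16254 genes. Recovery for the members, at the spread between these libraries, was not tested.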

Additional observations from a re-analysis of the deposited data

How the results depend on the processing

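No member was called under any alternative run. None of the 17 named members changed direction in a fit it had under the 11 alternatives other than leaving out a library. The other filters and variance estimates leave the fold change itself as it is, so they could not change a direction. H2-Q10, H2-M5, H2-T3 and H2-Ke6 had no fit at a minimum mean of 50. Leaving out 1 library changed the direction of 7 of the 17 named members. The log2 fold change became 0.016 without KO-labelled replicate 2 and 0.048 without replicate 3 for H2-D1, 0.026 without replicate 3 for H2-Aa, and -0.080 for Ciita, -0.013 for B2m, -0.057 for Nlrc5 and -0.038 for Tap1 without replicate 1. Without wild-type replicate 3 it was -0.0071 for B2m and -0.0074 for H2-Q10. The ranges over these fits were -0.096 to 0.048 (H2-D1), -0.35 to 0.026 (H2-Aa), -0.080 to 0.22 (Ciita), -0.013 to 0.057 (B2m), -0.057 to 0.15 (Nlrc5), -0.038 to 0.14 (Tap1) and -0.0074 to 0.63 (H2-Q10). Of the members that kept their direction, the range was -0.59 to -0.20 for Cd74, -0.33 to -0.0067 for H2-Ab1, -0.48 to -0.062 for H2-Eb1, 0.26 to 0.65 for H2-Eb2, -0.12 to -0.010 for H2-K1, -0.70 to -0.30 for H2-Ke6, 0.018 to 0.45 for H2-M5, -1.28 to -0.55 for H2-Q2, -0.84 to -0.33 for H2-T3 and -0.19 to -0.11 for Tap2. The count over all genes, 42 in limma, was 17 without the trend, 80 with robust variances, 165 in DESeq2 and 23 to 42 with a library left out, lowest without KO-labelled replicate 2. The cause was not tested. Same-numbered libraries did not deviate together (correlations 0.023, 0.058 and -0.11), and with the replicate number as a block, a fit that also lacks wild-type replicate 4, 37 genes and 0 members were called, against 34 genes without that library and no block. Of the 6 tested members with a mean under 100, 0 had a 95% interval within 1.5-fold, and the part of depth in this was not tested.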
